A study of Mus musculus with 15 samples.

Results

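The genes described here are 35 enzymes of pyruvate use and the citrate cycle, taken by gene symbol from a table of 20089 genes measured in mouse bone marrow-derived macrophages (BMDMs). The list was drawn up by name, with no threshold on a measured value, but earlier results from the same samples were known when it was made, so its counts describe these genes and are no independent evidence about the pathway. All 35 symbols were found and all 35 passed the filter on low values. RNA sequencing had been run on 15 samples in 5 groups of 3, all from wild-type C57BL/6 mouse bone marrow cells grown into BMDMs with M-CSF (macrophage colony-stimulating factor). The control group received M-CSF alone. The other groups received M-CSF together with RANKL, the cytokine that turns macrophage precursors into bone-resorbing osteoclasts, or with LPS (lipopolysaccharide), a bacterial cell wall component that triggers an inflammatory response, for 4 h or for 3 days (72 h). No group was kept in M-CSF alone for a further 72 h. The added agent and the time in culture therefore cannot be told apart when a 72 h group is set against control or against a 4 h group. The labels do not say whether the 3 samples of a group came from separate mice or cultures, so the p-values measure only the spread between these samples, which may be technical.

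Pyruvate, the end product of glycolysis, enters mitochondria and is turned into acetyl-CoA by the pyruvate dehydrogenase complex, or into oxaloacetate by pyruvate carboxylase. Kinases of the Pdk family switch the complex off by phosphorylating its E1α subunit, and phosphatases such as Pdp1 switch it back on. Acetyl-CoA joins oxaloacetate to form citrate, which the cycle returns stepwise to oxaloacetate while electrons pass to the respiratory chain. Osteoclasts are rich in mitochondria, whereas macrophages exposed to LPS are known to slow parts of the cycle and to make itaconate and fatty acids from citrate. These are facts about the pathway and not results of these samples.

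Expression was given as FPKM (fragments per kilobase of exon, scaled to the mapped fragments of the sample), a level per length that allows genes to be compared. Each sample held between 18306184 and 20330207 fragments on the listed genes. Differences are on the log2(FPKM + 0.1) scale, which understates the change of low genes. A gene is said to have risen or fallen where its fold change was above 1.5 or below 0.66 and its adjusted p in limma, corrected over all 11743 genes tested, was under 0.05. The median gene itself moved between groups by a log2 difference of 0.22 at 72 h of RANKL, -0.57 at 4 h of LPS and 0.08 at 72 h of LPS, so each comparison is also given after every sample was centred on its median gene. The 7 macrophage genes were detected in every sample (*Cd68* at 1433, 1421 and 1301 FPKM in control), though they did not move alike. The lowest of their values was 18.8 FPKM, for *Mertk* in replicate 3 of RANKL at 72 h. Granulocyte precursor genes were abundant too, their summed level ranging from 7912 to 24341 FPKM in the control samples. The osteoclast list summed to 155 to 280 FPKM in control and 1721 to 5474 FPKM after 72 h of RANKL, and *Calcr*, the calcitonin receptor of osteoclasts, was at 0 in all control samples and at 3.63, 1.79 and 6.36 FPKM after 72 h of RANKL. In bulk RNA, fewer cells of a type and less RNA per cell cannot be told apart.

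**Figure D1:**
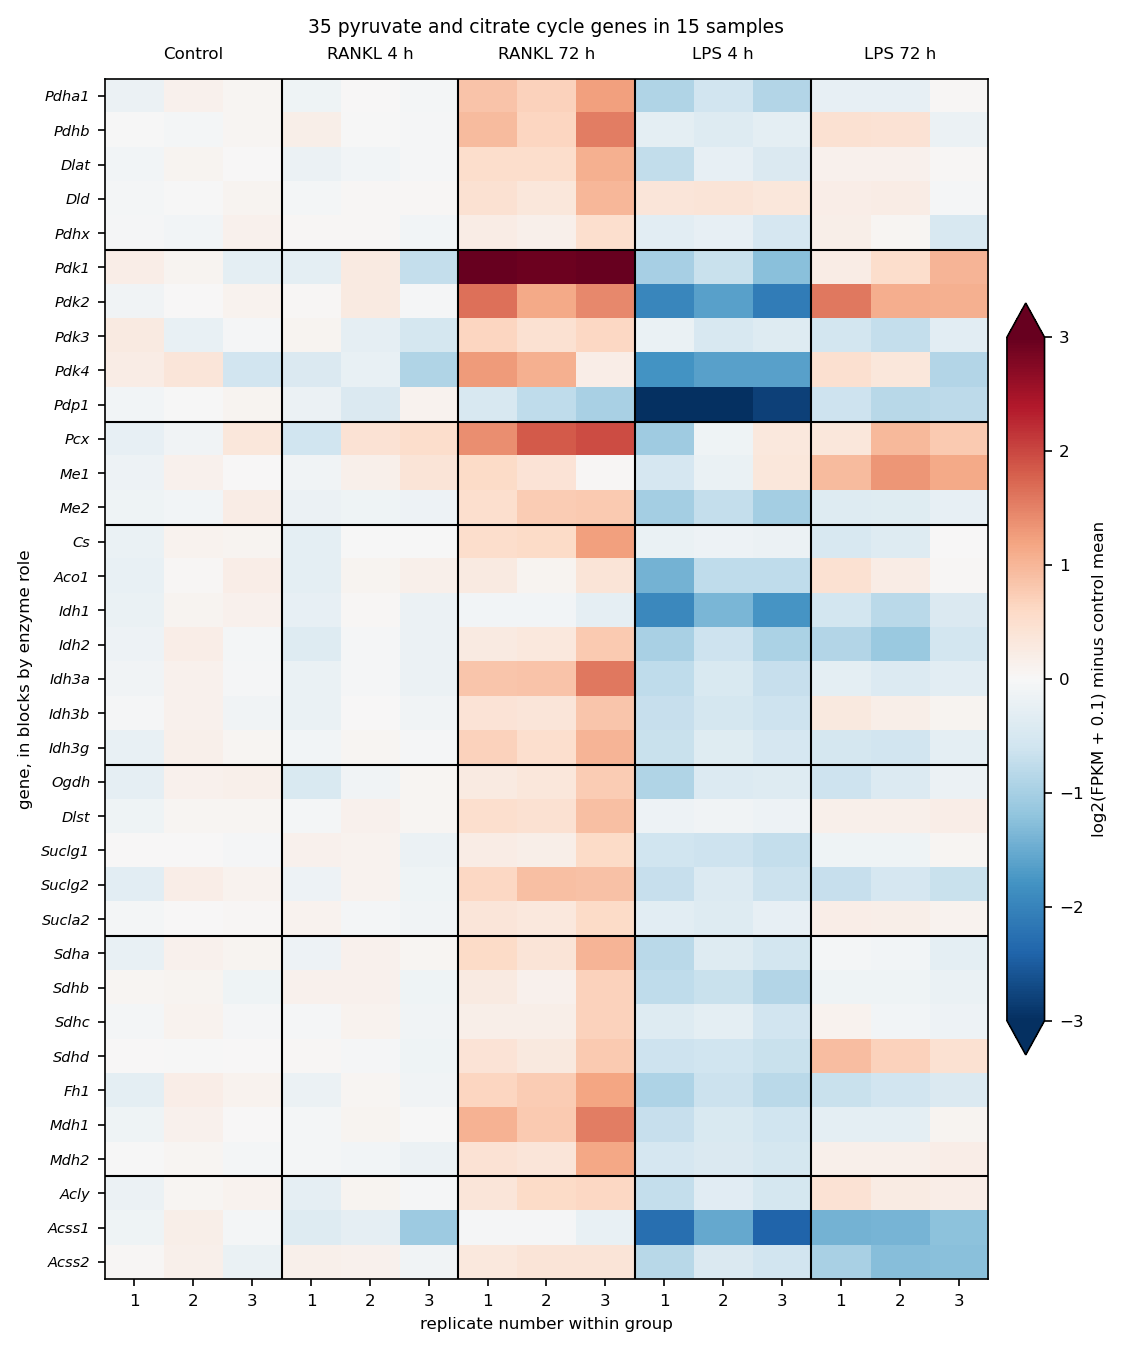
Expression of the 35 enzyme genes in each of the 15 samples, as log2(FPKM + 0.1) minus the mean of the 3 control samples, with rows grouped by role and columns by group. Red marks values above control and blue values below. The row of *Pdk1* is the most strongly red at 72 h of RANKL (mean difference 3.13), and the row of *Pdp1* the most strongly blue at 4 h of LPS (mean difference -2.99).

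After 72 h of RANKL, 17 of the 35 genes had risen and 1 had fallen, which is 48.6% and 2.86% of them, where 16.6% of all genes tested rose and 7.54% fell. Subunits of the dehydrogenase complex, both malate dehydrogenases, fumarase and citrate synthase were among those that rose, and the largest change was in *Pdk1*, a pyruvate dehydrogenase kinase, at 8.73-fold. The gene that fell was *Pdp1*, a phosphatase that acts against the kinases. After centring on the median gene, 8 rose (*Pdha1*, *Pdhb*, *Pdk1*, *Pdk2*, *Pcx*, *Idh3a*, *Fh1* and *Mdh1*) and *Pdp1* fell, against 9.94% and 12.2% of all genes. The median difference over the 35 genes was 0.60, or 0.38 after centring, and over all genes it was 0.16 before centring. In 29 genes all 3 RANKL 72 h samples lay above all 3 control samples and in 1 gene they lay below, where 33.1% and 16.1% of all genes separated in these directions.

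Among the regulators of the pyruvate dehydrogenase complex, *Pdk1* was at 5.83, 5.36 and 4.10 FPKM in the control samples and at 45.6, 39.3 and 50.2 FPKM after 72 h of RANKL. It rose 8.73-fold (log2 difference 3.13, SE 0.26, adjusted p = 2.63e-06), with no overlap between the groups and 504 to 770 fragments behind each control value. *Pdk2*, a kinase found in most tissues, went from 1.87, 2.04 and 2.19 FPKM to 6.59, 4.60 and 5.69 FPKM (log2 difference 1.41, SE 0.20, adjusted p = 0.000211). All 3 values after RANKL were above all control values for both kinases. *Pdk3* was at 14.1, 9.94 and 11.4 FPKM in control and 18.3, 16.1 and 17.9 FPKM after RANKL, groups that do not overlap, but its fold of 1.48 lay under the threshold of 1.5 (log2 difference 0.57, SE 0.17, adjusted p = 0.0213). *Pdk4*, the kinase best known from fasting and fat use, was the lowest of the family at 0.701, 0.788 and 0.362 FPKM in control and 1.57, 1.34 and 0.688 FPKM after RANKL. Its groups overlapped and it was not called (log2 difference 0.84, SE 0.39, adjusted p = 0.112), whereas with the replicate number as a block its adjusted p was 0.0308 and it was called, as 18.4% of all genes were in that direction. *Pdp1* was at 8.96, 9.38 and 9.93 FPKM in control and 6.76, 5.51 and 4.73 FPKM after RANKL, lower in all 3 samples, and it fell by 1.67-fold (log2 difference -0.74, SE 0.17, adjusted p = 0.00521).

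**Figure D2:**
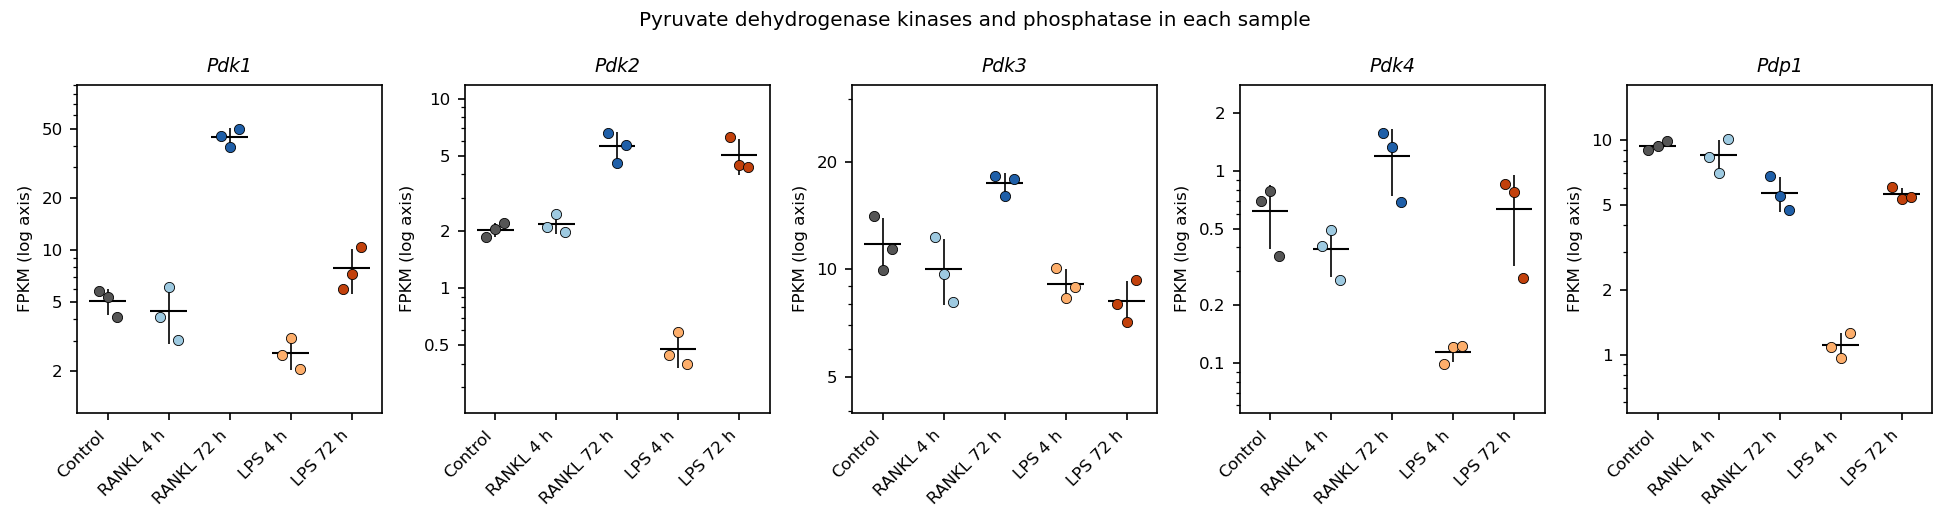
FPKM of the 4 pyruvate dehydrogenase kinases and of the phosphatase *Pdp1* in every sample on a log axis, with the mean as a line and the SD as a bar (n = 3 per group). *Pdk1* stands at 45.6, 39.3 and 50.2 FPKM in the RANKL 72 h group and at 10.4 FPKM or less in every other sample, while *Pdk2* stands above control at 72 h of either agent and *Pdp1* is lowest at 4 h of LPS.

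The upstream sequences of 4 genes that rose at 72 h of RANKL and after centring are shown, to set genes with and without a common motif beside each other. Each is the 250 bases before a transcript start in RefSeq (build GRCm38.p6), read 5′ to 3′ on the gene's strand. Capitals mark the letters ACGTG on either strand, 1 form of the core that HIF-1 and other bHLH factors recognise. The form GCGTG, which HIF-1 also recognises, was not searched for or marked. The palindrome CACGTG holds 2 overlapping matches. The *Pdk1* window lies at chr2:71872974-71873223 on the plus strand, the *Pdk2* window at chr11:95041372-95041621 on the minus strand, the *Mdh1* window at chr11:21571935-21572184 on the minus strand and the *Pcx* window at chr19:4510222-4510471 on the plus strand. The *Mdh1* window precedes a RefSeq transcript start but lies inside the annotated span of the gene (chr11:21556787-21572367), not upstream of it.
Pdk1: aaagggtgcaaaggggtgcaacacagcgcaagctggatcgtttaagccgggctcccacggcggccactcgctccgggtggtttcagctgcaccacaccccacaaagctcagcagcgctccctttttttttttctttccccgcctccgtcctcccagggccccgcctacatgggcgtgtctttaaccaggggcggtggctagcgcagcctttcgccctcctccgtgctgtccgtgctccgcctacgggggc
Pdk2: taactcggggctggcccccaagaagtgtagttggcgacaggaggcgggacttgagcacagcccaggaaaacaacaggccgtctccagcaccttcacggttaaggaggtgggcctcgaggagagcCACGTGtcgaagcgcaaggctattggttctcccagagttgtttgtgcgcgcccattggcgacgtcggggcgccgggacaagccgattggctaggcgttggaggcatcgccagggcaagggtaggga
Mdh1: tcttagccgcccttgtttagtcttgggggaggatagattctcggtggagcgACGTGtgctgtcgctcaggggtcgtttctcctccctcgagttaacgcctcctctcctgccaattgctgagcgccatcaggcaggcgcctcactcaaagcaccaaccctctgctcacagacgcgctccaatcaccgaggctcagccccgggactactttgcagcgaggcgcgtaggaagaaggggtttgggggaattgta
Pcx: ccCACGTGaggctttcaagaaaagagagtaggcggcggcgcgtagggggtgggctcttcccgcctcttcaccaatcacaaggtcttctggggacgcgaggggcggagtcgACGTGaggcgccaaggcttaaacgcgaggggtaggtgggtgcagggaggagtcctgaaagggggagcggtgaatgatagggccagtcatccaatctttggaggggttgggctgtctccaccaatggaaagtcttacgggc
The *Pdk1* window held no ACGTG, but it does hold the unmarked letters GCGTG, so it cannot be said to lack a HIF core. The *Pdk2* window held the palindrome, the *Mdh1* window 1 match, and the *Pcx* window the palindrome and 1 further match. *Pdk1*, *Pdk2* and *Pcx* each had a second window, not printed, with 0 matches. A window was found for 31 of the 35 genes, with none for *Pdp1*, *Me2*, *Sdhc* and *Idh3a*. Of these 31, 10 held ACGTG (32.3%: *Pdhb*, *Pdk2*, *Pdk3*, *Pcx*, *Me1*, *Idh3g*, *Ogdh*, *Sdha*, *Mdh1* and *Acly*), where 18.5% of 27025 genes did. Some genes had more than 1 window (*Ogdh* had 6), and a gene counted if any of its windows matched. *Me1* counted only through its second window. The half-site AAGGTCA of oestrogen-related receptors was in 0 of 31 and in 4.7% of all genes. The NRF1 letters (GCGCA, any base, then GCGC) were in 3 (*Sucla2*, *Sdha* and *Sdhd*; 9.68% against 4.23%), and the ETS letters CCGGAAG in 3 (*Idh3g*, *Sdhd* and *Acss2*; 9.68% against 7.83%). These matches describe letters and not binding.

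Within the pyruvate dehydrogenase complex, 4 of 5 subunits rose after 72 h of RANKL. *Pdha1*, the E1α subunit that the kinases phosphorylate, was at 29.0, 35.6 and 33.9 FPKM in control and 58.8, 52.8 and 76.9 FPKM after RANKL (log2 difference 0.92, SE 0.15, adjusted p = 0.000496). *Pdhb*, its E1β partner, went from 37.7, 36.6 and 39.9 FPKM to 73.0, 59.2 and 111 FPKM (log2 difference 1.04, SE 0.20, adjusted p = 0.00193). *Dlat*, the E2 core that makes acetyl-CoA, went from 11.4, 12.7 and 12.0 FPKM to 17.3, 17.3 and 25.4 FPKM, a log2 difference of 0.70. None of these 3 subunits overlapped between the groups, and RANKL replicate 3 was the highest in each. *Dld*, the E3 subunit shared with the 2-oxoglutarate dehydrogenase complex, was at 36.4, 37.6 and 40.3 FPKM in control and 51.9, 48.5 and 75.8 FPKM after RANKL, a log2 difference of 0.60. *Pdhx*, which tethers E3 to the core, stood at 7.80, 7.52 and 8.67 FPKM and 9.39, 8.84 and 11.4 FPKM and was not called (log2 difference 0.30, SE 0.16, adjusted p = 0.186). *Dlat* and *Dld* were no longer called after centring (0.48 and 0.38) or without RANKL 72 h replicate 3, where their log2 differences were 0.52 and 0.40.

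Pyruvate carboxylase, *Pcx*, which refills the cycle with oxaloacetate, was low in control at 0.562, 0.621 and 0.894 FPKM and stood at 1.93, 2.67 and 2.92 FPKM after 72 h of RANKL. All RANKL values were above control and the gene rose 3.30-fold (log2 difference 1.72, SE 0.37, adjusted p = 0.00376). The mitochondrial malic enzyme *Me2* rose from 6.51, 6.73 and 8.42 FPKM to 10.3, 12.3 and 12.4 FPKM, a log2 difference of 0.69. Its cytosolic counterpart *Me1*, a source of NADPH, was at 3.01, 3.68 and 3.38 FPKM and 5.05, 4.46 and 3.43 FPKM, overlapping groups that differed by 0.34 (adjusted p = 0.256).

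On the way from citrate to 2-oxoglutarate, 3 of 7 genes rose. *Cs*, citrate synthase, which opens the cycle, was at 64.1, 79.0 and 77.2 FPKM in control and 105, 108 and 172 FPKM after RANKL (log2 difference 0.78, SE 0.18, adjusted p = 0.00608). *Idh3a*, the catalytic subunit of the NAD-dependent isocitrate dehydrogenase, went from 18.6, 21.7 and 19.6 FPKM to 35.8, 36.4 and 60.2 FPKM (log2 difference 1.10, SE 0.17, adjusted p = 0.000397). *Idh3g*, a regulatory subunit of the same enzyme, went from 37.6, 49.0 and 45.5 FPKM to 70.8, 62.3 and 88.9 FPKM, a log2 difference of 0.74. The groups were separate in all 3. *Idh3b*, the other regulatory subunit, differed by 0.54 with an adjusted p of 0.00667, but its fold of 1.45 was under the threshold. The NADP-dependent enzymes were not called: cytosolic *Idh1* was at 77.7, 94.6 and 97.7 FPKM and 85.0, 84.1 and 74.8 FPKM, and mitochondrial *Idh2* at 29.9, 38.3 and 32.0 FPKM and 40.0, 41.3 and 57.2 FPKM. *Aco1*, the cytosolic aconitase that also serves as an iron sensor, differed by 0.26 and was not called either.

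From 2-oxoglutarate to succinate, *Dlst*, the E2 core of the 2-oxoglutarate dehydrogenase complex, rose from 40.3, 45.9 and 45.4 FPKM to 61.9, 60.1 and 81.8 FPKM, and *Suclg2*, the GTP-forming β subunit of succinyl-CoA ligase, from 4.04, 5.83 and 5.42 FPKM to 7.77, 9.51 and 9.40 FPKM. Their log2 differences were 0.62 (adjusted p = 0.00152) and 0.80 (adjusted p = 0.00256), and neither was called after centring. *Ogdh*, the E1 subunit, *Suclg1*, the shared α subunit, and *Sucla2*, the ATP-forming β subunit, differed by 0.46, 0.32 and 0.43 and were not called, the last with an adjusted p of 0.00640 and a fold of 1.34.

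In the last stretch of the cycle, from succinate to oxaloacetate, 4 of 7 genes rose. *Mdh1*, the cytosolic malate dehydrogenase of the malate-aspartate shuttle, was at 61.3, 72.9 and 67.8 FPKM in control and 139, 116 and 196 FPKM after RANKL (log2 difference 1.13, SE 0.17, adjusted p = 0.000292). *Mdh2*, the mitochondrial enzyme, was the most abundant of the 35 in control at 176, 185 and 172 FPKM and stood at 242, 229 and 396 FPKM after RANKL, a log2 difference of 0.66. *Fh1*, fumarase, went from 20.7, 29.1 and 27.3 FPKM to 40.0, 43.4 and 58.2 FPKM (log2 difference 0.87, SE 0.16, adjusted p = 0.00132). In each of these genes the groups were separate. *Sdha*, the flavoprotein of succinate dehydrogenase (complex II), rose from 80.7, 103 and 98.2 FPKM to 138, 122 and 188 FPKM, a log2 difference of 0.65. The iron-sulfur subunit *Sdhb* and the membrane anchors *Sdhc* and *Sdhd* differed by 0.37, 0.35 and 0.50 and were not called. None of the 3 genes that make cytosolic or acetate-derived acetyl-CoA was called, with log2 differences of 0.52 for *Acly* (ATP citrate lyase, fold 1.44), -0.10 for *Acss1* (mitochondrial acetyl-CoA synthetase) and 0.36 for *Acss2* (its cytosolic counterpart).

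The RANKL 72 h samples were uneven. Summed over the 35 genes they held 1949, 1839 and 2668 FPKM, against 1305 to 1465 FPKM in control. Replicate 3 was the highest in 26 of the 35 genes and in 9 of 10 osteoclast genes, whose summed levels were 3168, 1721 and 5474 FPKM in the 3 samples. Proliferation genes summed to 225 to 343 FPKM against 137 to 214 FPKM in control, with 1 of 7 called, and stromal genes to 1929, 921 and 434 FPKM against 159 to 347 FPKM, with 7 of 11 risen (2 after centring). Granulocyte precursor genes summed to 1849 to 7451 FPKM against 7912 to 24341 FPKM, with 5 of 9 fallen and a median log2 difference of -2.20. All 5 basophil and mast cell genes fell (median -2.91, sums of 0.473 to 3.62 FPKM against 23.3 to 66.0 FPKM), as did 3 of 4 B cell genes (5.08 to 7.17 FPKM against 16.0 to 20.6 FPKM). Of the 7 macrophage genes, 1 rose (*Csf1r*) and 1 fell (*Fcgr1*), and after centring 0 rose and 2 fell. *Fcgr1* was at 422, 322 and 150 FPKM in control and 41.5, 74.8 and 37.9 FPKM after RANKL. The part of these cell types in the enzyme values was not tested. Without RANKL replicate 3, 12 genes were called in place of 18, and *Dlat*, *Dld*, *Cs*, *Dlst*, *Sdha* and *Mdh2* were lost, with log2 differences of 0.40 to 0.55. Without control replicate 1, the lowest of its group in 24 of the 35 genes, 16 were called, with *Dld*, *Dlst* and *Sdha* lost and *Pdk3* gained. *Pdk3*, *Idh3b*, *Sdhd* and *Acly*, whose folds lay just under 1.5, were each gained without 1 or more other single samples (control replicate 2 or RANKL replicate 1 or 2). The share of all genes called without a single sample is not given here, so these losses and gains may not be particular to the 35 genes.

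**Figure D3:**
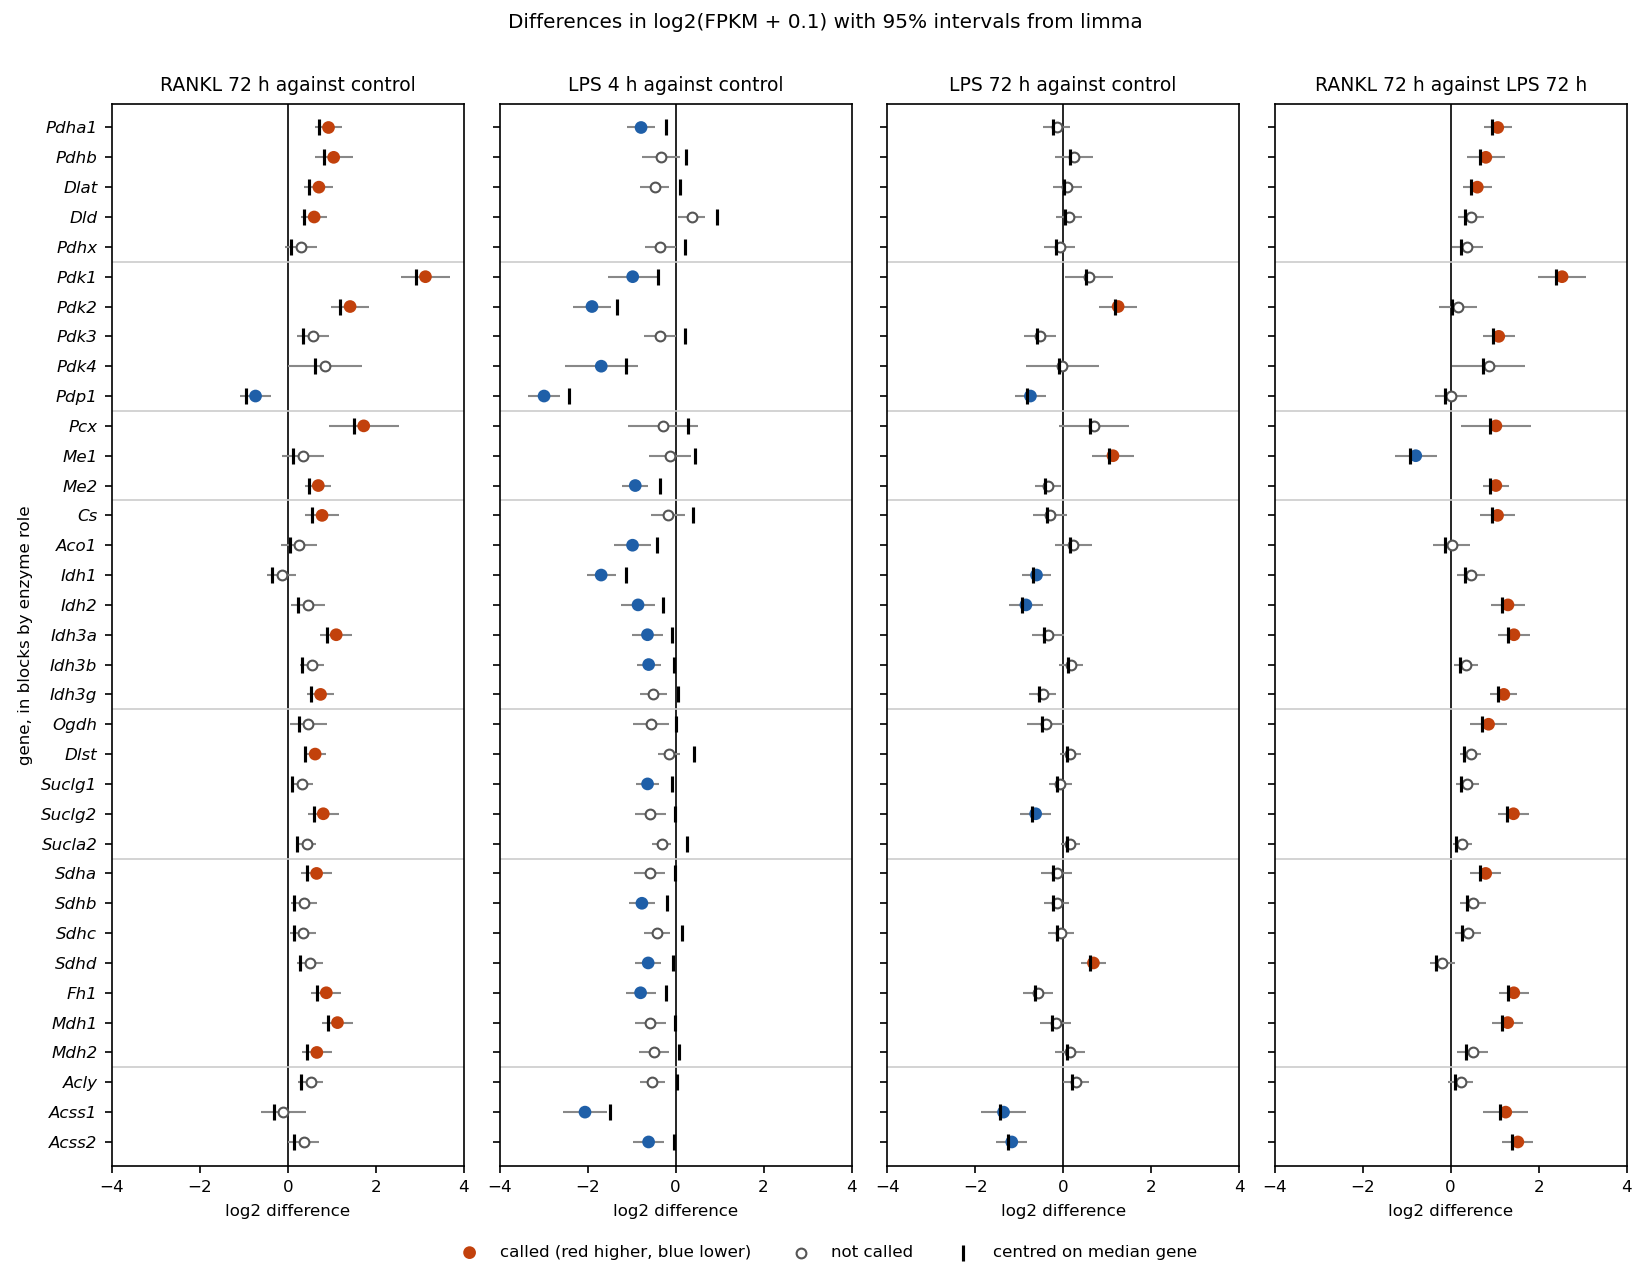
Log2 differences of the 35 genes in 4 comparisons (RANKL 72 h, LPS 4 h and LPS 72 h against control, and RANKL 72 h against LPS 72 h), with 95% intervals from limma. Filled points passed the fold and adjusted p thresholds (red higher, blue lower), open points did not, and the black tick is the difference after centring on the median gene. Called points number 17 higher and 1 lower, 0 and 17, 3 and 6, and 18 and 1 in the 4 panels.

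After 4 h of RANKL none of the 35 genes was called by limma, where 0.119% of all genes were called, and none on the centred scale, where 0.0937% were. At an unadjusted p under 0.05 the count was 1 (*Acss1*) of 35 and 583 of all genes, and with the fold threshold added it was 0 of 35 and 2.56% of all genes. voom on the recovered fragments called 0 of 35 and 0.119% of all genes. The differences ran from -0.58 (*Acss1*) to 0.14 (*Me1*), and the widest 95% intervals reached down to -1.35 (*Pdk4*) and up to 0.92 (*Pcx*), both low genes. *Pdk1* was at 4.12, 6.14 and 3.04 FPKM and *Pdp1* at 8.35, 6.99 and 10.1 FPKM, overlapping control. *Mdh2* and *Acss1* were lower than control in every sample, 2 of 35 genes where 4.71% of all genes separated in this direction, and 0 were higher in every sample, where 6.05% of all genes were.

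At 4 h of LPS much of the transcriptome was lower by this measure, and many of the enzyme genes with it. Of the 35, 17 fell and 0 rose (48.6% fell), where 39.7% of all genes fell and 8.43% rose. The median difference over the 35 genes was -0.58 and over all genes -0.52. On the centred scale 5 genes fell (*Pdk2*, *Pdk4*, *Pdp1*, *Idh1* and *Acss1*) and 1 rose (*Dld*), against 13% and 15.9% of all genes, and the median over the 35 genes was -0.02. In 29 genes all LPS values lay below all control values and in 1 above, where 56.2% and 10.6% of all genes did so.

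*Pdp1* changed most at 4 h of LPS. It was at 1.09, 0.964 and 1.26 FPKM, from 91 to 118 fragments, against 8.96, 9.38 and 9.93 FPKM in control, and fell 7.94-fold (log2 difference -2.99, SE 0.17, adjusted p = 1.59e-08; -2.42 after centring). *Pdk2* was at 0.447, 0.587 and 0.396 FPKM, from 22 to 33 fragments, and fell too (log2 difference -1.90, SE 0.20, adjusted p = 3.64e-06). *Pdk4* was at 0.0988, 0.121 and 0.123 FPKM, from only 7 to 9 fragments (log2 difference -1.69, SE 0.39, adjusted p = 0.00202). Its mean was 0.114 ± 0.0135 FPKM (SD, n = 3) against 0.617 ± 0.225 FPKM in control, so the added 0.1 is close to the level itself and the printed difference is smaller than the ratio of the means. In these 3 regulators of the pyruvate dehydrogenase complex every LPS value was below every control value. *Pdk1* was at 2.47, 3.12 and 2.07 FPKM and fell by 1.96-fold (log2 difference -0.97, SE 0.26, adjusted p = 0.00507), but not after centring (-0.41). *Pdk3* was at 10.1, 8.32 and 8.93 FPKM, a log2 difference of -0.36, and was not called.

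Cytosolic *Idh1*, an NADPH source, was at 23.4, 34.7 and 26.1 FPKM after 4 h of LPS against 77.7, 94.6 and 97.7 FPKM in control (log2 difference -1.69, SE 0.15, adjusted p = 9.51e-07; -1.12 after centring). *Acss1* was at 1.19, 2.04 and 1.08 FPKM against 5.58, 6.83 and 5.86 FPKM (log2 difference -2.06, SE 0.24, adjusted p = 8.80e-06; -1.49 after centring). Both were lower in every LPS sample. *Dld* went the other way: it was at 48.8, 50.0 and 48.4 FPKM, above the control values of 36.4, 37.6 and 40.3 FPKM, by 0.36 before centring, which is under the fold threshold, and by 0.93 after it (adjusted p in limma = 0.000111). *Cs* was at 63.9, 66.2 and 64.9 FPKM and differed by -0.17, with *Dlst* at -0.14 and *Me1* at -0.12, and none of these was called. *Acss2* was lost without any of 3 libraries (control replicate 1 or 2 or LPS replicate 1), where its log2 difference was -0.59 to -0.50. *Idh3a* and *Idh3b* were lost without control replicate 2 or LPS replicate 1 (-0.58 to -0.54), and *Sdhd* without LPS replicate 3 (-0.60). Without control replicate 1, *Idh3g*, *Ogdh*, *Suclg2*, *Sdha*, *Mdh1* and *Acly* were gained, and the last 5 of these also without LPS replicate 2. Of the marker lists, 2 of 7 proliferation genes and 1 of 4 B cell genes fell at 4 h of LPS, and none of the 9 granulocyte precursor or 11 stromal genes was called. Their part in the enzyme values was not tested.

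The other genes that fell at 4 h of LPS, given here with their log2 differences from control, were not called once centred. *Aco1* was at 13.5, 16.2 and 18.1 FPKM in control and 5.88, 9.28 and 9.34 FPKM after LPS, a log2 difference of -0.98 (adjusted p = 0.000674). *Me2* was at 3.50, 4.36 and 3.46 FPKM (-0.92, adjusted p = 9.06e-05), and *Idh2* at 16.8, 21.6 and 17.0 FPKM (-0.85, adjusted p = 0.000996). In these 3 genes the groups did not overlap. *Fh1* was at 13.3, 16.3 and 14.4 FPKM (-0.79, adjusted p = 0.000751) and *Pdha1* at 17.4, 21.9 and 17.9 FPKM (-0.78, adjusted p = 0.000445). *Idh3a* was at 11.6, 14.5 and 12.4 FPKM (-0.64, adjusted p = 0.00510), and *Idh3b* at 61.8, 70.2 and 59.7 FPKM in control and 39.4, 44.4 and 41.5 FPKM after LPS (-0.61, adjusted p = 0.00106). In these 4 genes every LPS value was below every control value. *Sdhb* was at 112, 113 and 98.8 FPKM in control and 63.7, 68.0 and 58.8 FPKM after LPS (-0.76, adjusted p = 0.000329), and *Sdhd* at 68.8, 70.0 and 66.2 FPKM after LPS (-0.62, adjusted p = 0.00135). *Suclg1* was at 41.1, 41.3 and 40.1 FPKM in control and 27.1, 26.6 and 25.0 FPKM after LPS (-0.64, adjusted p = 0.000503), and *Acss2* at 1.76, 2.34 and 2.12 FPKM after LPS (-0.61, adjusted p = 0.00541). These too were lower in every LPS sample.

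By 72 h of LPS the list had no common direction. Of the 35 genes 3 rose and 6 fell (8 fell after centring), where 13% of all genes rose and 14.4% fell, and the median difference was -0.08. The genes that rose were *Pdk2*, *Me1* and *Sdhd*. The genes that fell were *Pdp1*, *Idh1*, *Idh2*, *Suclg2*, *Acss1* and *Acss2*, and *Pdk3* and *Fh1* joined them on the centred scale, where 10.3% of all genes rose and 16.1% fell. All LPS values were above control in 8 genes and below it in 11, where 23.1% and 21% of all genes separated in these directions.

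*Pdk2* was at 6.29, 4.45 and 4.38 FPKM after 72 h of LPS (log2 difference 1.25, SE 0.20, adjusted p = 0.000353). *Me1* was at 6.50, 8.57 and 7.44 FPKM against 3.01, 3.68 and 3.38 FPKM in control (log2 difference 1.13, SE 0.22, adjusted p = 0.00147). *Sdhd*, a membrane anchor of succinate dehydrogenase, was at 200.4, 169.8 and 143 FPKM against 105, 105 and 105 FPKM (log2 difference 0.69, SE 0.13, adjusted p = 0.00153). All 3 were above control in every sample, and the other succinate dehydrogenase subunits were not called, with log2 differences of -0.14 for *Sdha*, -0.15 for *Sdhb* and -0.05 for *Sdhc*. *Sdhd* was lost without LPS 72 h replicate 1 (0.57).

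Both acetyl-CoA synthetases fell at 72 h of LPS. *Acss2* was at 1.59, 1.27 and 1.27 FPKM against 3.30, 3.55 and 2.79 FPKM in control (log2 difference -1.17, SE 0.16, adjusted p = 0.000141), and *Acss1* at 2.20, 2.24 and 2.51 FPKM (log2 difference -1.35, SE 0.24, adjusted p = 0.000708). *Acly* was at 60.9, 53.8 and 52.5 FPKM against 40.3, 47.4 and 48.9 FPKM and was not called (log2 difference 0.29, SE 0.13, adjusted p = 0.101). *Idh2* was at 17.9, 15.4 and 22.7 FPKM (log2 difference -0.85, SE 0.18, adjusted p = 0.00245) and *Idh1* at 60.9, 50.9 and 65.8 FPKM (log2 difference -0.60, SE 0.15, adjusted p = 0.00740), both below every control value. *Pdp1* was at 6.05, 5.29 and 5.44 FPKM, with a log2 difference of -0.74, close to its -0.74 at 72 h of RANKL. *Suclg2* was at 3.07, 3.54 and 3.11 FPKM, a log2 difference of -0.62. *Idh1* was lost without any of 3 libraries (control replicate 2 or 3 or LPS replicate 2), at -0.57 to -0.50, and *Suclg2* without any of 4 (control replicate 2 or 3 or LPS replicate 1 or 3), at -0.60 to -0.52.

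*Pdk1* was at 5.94, 7.29 and 10.4 FPKM after 72 h of LPS, above every control value but not called (log2 difference 0.59, SE 0.26, adjusted p = 0.0872). *Pcx* was at 0.883, 1.42 and 1.24 FPKM and was not called (log2 difference 0.69, SE 0.37, adjusted p = 0.159). Proliferation genes summed to 16.5 to 43.8 FPKM in this group against 137 to 214 FPKM in control, all 7 of them lower, and granulocyte precursor genes to 152 to 1816 FPKM, all 9 lower. Of the B cell genes 4 of 4 were lower and of the basophil and mast cell genes 4 of 5. Replicate 3 of LPS at 72 h was the highest of its group in 7 of 7 macrophage, 9 of 9 granulocyte precursor and 9 of 11 stromal genes. The part of these cells in the enzyme values was not tested.

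Set directly against each other at 72 h, RANKL was above LPS in 18 of the 35 genes and below it in 1, where 23.3% of all genes were higher and 12.8% lower. After centring these numbers were 16 and 1, where the shares of all genes were 19% and 17.4%, and *Dlat* and *Pcx* were the genes lost. The median difference over the 35 genes was 0.80, against 0.11 over all genes. In 27 genes all RANKL values were above all LPS values and in 1 below, where 31.5% and 20% of all genes separated. Both groups had the same time of stimulation. No control sample enters the difference itself, but all 15 samples set the spread used in the fit. The SD over the mean had a median over the 35 genes of 19.0% at 72 h of RANKL. In the other groups this median was 9.93% to 11.4%.

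*Pdk1* differed most, at 2.53 (SE 0.26, adjusted p = 4.47e-06), from the values given above. *Acss2*, at 4.00, 4.21 and 4.20 FPKM after RANKL and 1.59, 1.27 and 1.27 FPKM after LPS, followed (log2 difference 1.53, SE 0.16, adjusted p = 7.07e-06). *Idh3a*, at 35.8, 36.4 and 60.2 and 16.3, 14.9 and 16.0 FPKM, differed by 1.44 (adjusted p = 1.51e-05). *Fh1*, at 40.0, 43.4 and 58.2 and 15.8, 17.1 and 18.7 FPKM, differed by 1.43 (adjusted p = 9.84e-06). For each of these 4 genes the groups were well apart. *Suclg2*, given above, differed by 1.43 (adjusted p = 1.22e-05) and *Idh2* by 1.30 (adjusted p = 5.48e-05). *Acss1* was at 5.89, 5.87 and 5.20 FPKM after RANKL and differed by 1.25 (adjusted p = 0.000752), and *Pcx* differed by 1.03 (adjusted p = 0.0358).

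The LPS 72 h values of the other genes that were higher after RANKL follow with the log2 differences between the agents, and the RANKL values stand above. *Mdh1* was at 54.8, 54.9 and 70.6 FPKM and differed by 1.30 (adjusted p = 3.20e-05). *Idh3g* was at 30.4, 29.1 and 35.8 FPKM (1.21, adjusted p = 1.80e-05) and *Cs* at 52.0, 55.7 and 73.8 FPKM (1.07, adjusted p = 0.000338). None of these 3 was called between LPS at 72 h and control. *Pdk3* was at 7.98, 7.14 and 9.36 FPKM (1.09, adjusted p = 0.000163) and *Me2* at 5.42, 5.53 and 6.05 FPKM (1.03, adjusted p = 5.50e-05). *Pdha1* was at 27.6, 27.8 and 33.5 FPKM (1.07, adjusted p = 5.64e-05), *Pdhb* at 52.4, 51.5 and 33.8 FPKM (0.80, adjusted p = 0.00531) and *Dlat* at 13.1, 13.1 and 12.4 FPKM (0.61, adjusted p = 0.00570). These are subunits of the pyruvate dehydrogenase complex and a kinase that acts on it, with the malic enzyme beside them. *Ogdh* was at 36.3, 37.8 and 51.2 FPKM after RANKL and 19.5, 22.6 and 26.4 FPKM after LPS (0.86, adjusted p = 0.00272), and *Sdha* at 89.4, 88.3 and 76.4 FPKM after LPS (0.80, adjusted p = 0.00138). *Me1* was the gene that was lower, at 5.05, 4.46 and 3.43 FPKM after RANKL and 6.50, 8.57 and 7.44 FPKM after LPS (log2 difference -0.79, SE 0.22, adjusted p = 0.00946).

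Among the genes that did not pass the test between the agents at 72 h, the difference was 0.16 for *Pdk2* (95% interval -0.26 to 0.59), 0.01 for *Pdp1* (-0.36 to 0.37) and 0.02 for *Aco1* (-0.39 to 0.43), intervals that still allow changes of that size. *Pdk4* differed by 0.87 (adjusted p = 0.0832) and was not called. *Pcx* was lost without any of 4 libraries (RANKL replicate 2 or 3 or LPS replicate 1 or 3), at 0.85 to 1.07, *Dlat* without replicate 3 of RANKL or of LPS (0.42 and 0.58), and *Pdhb* without RANKL replicate 3 (0.55). Beside these values, all 7 proliferation genes, all 10 osteoclast genes, 6 of 9 granulocyte precursor genes (median log2 difference 2.26), 6 of 11 stromal genes and 1 of 4 B cell genes were also higher after RANKL than after LPS. Their part in the enzyme differences was not tested. At 4 h, 15 of the 35 genes were higher after RANKL than after LPS and 0 lower, where 41% and 8.98% of all genes were, and centring left 4 and 1, where 13.5% and 16.2% of all genes were called. Within each agent, 22 genes were higher at 72 h than at 4 h of RANKL and 0 lower, where 16.4% and 6.83% of all genes were, and centring left 13 and 1, where 9.72% and 11.5% were called. Between 72 h and 4 h of LPS the counts were 15 and 0, where 44.2% and 13.9% of all genes were called, and after centring 6 and 7, where 18.8% and 27.5% were.

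Ratios of enzymes within a sample do not depend on the scaling of that sample and are given as a description. They were chosen after the values of these samples had been seen, so a shift in them is no further evidence. The summed FPKM of the 4 kinases over that of *Pdp1* was 1.82 to 2.51 in control, 1.33 to 2.69 at 4 h of RANKL, 10.6 to 15.7 at 72 h of RANKL, 9.11 to 12.6 at 4 h of LPS and 3.48 to 4.48 at 72 h of LPS. The ratio was therefore high in both the RANKL 72 h and the LPS 4 h samples, in the former with *Pdk1* high and in the latter with *Pdp1* low. *Pdk1* made up 22.7% to 29.6% of the kinase sum in control, 63.3% to 67.4% at 72 h of RANKL and 28.2% to 42.5% at 72 h of LPS. *Pdk3* was the main kinase in control, at 54.8% to 63.1%, and its share was 24.1% to 26.2% at 72 h of RANKL, 68.5% to 77.5% at 4 h of LPS and 36.3% to 38.4% at 72 h of LPS.

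**Figure D4:**
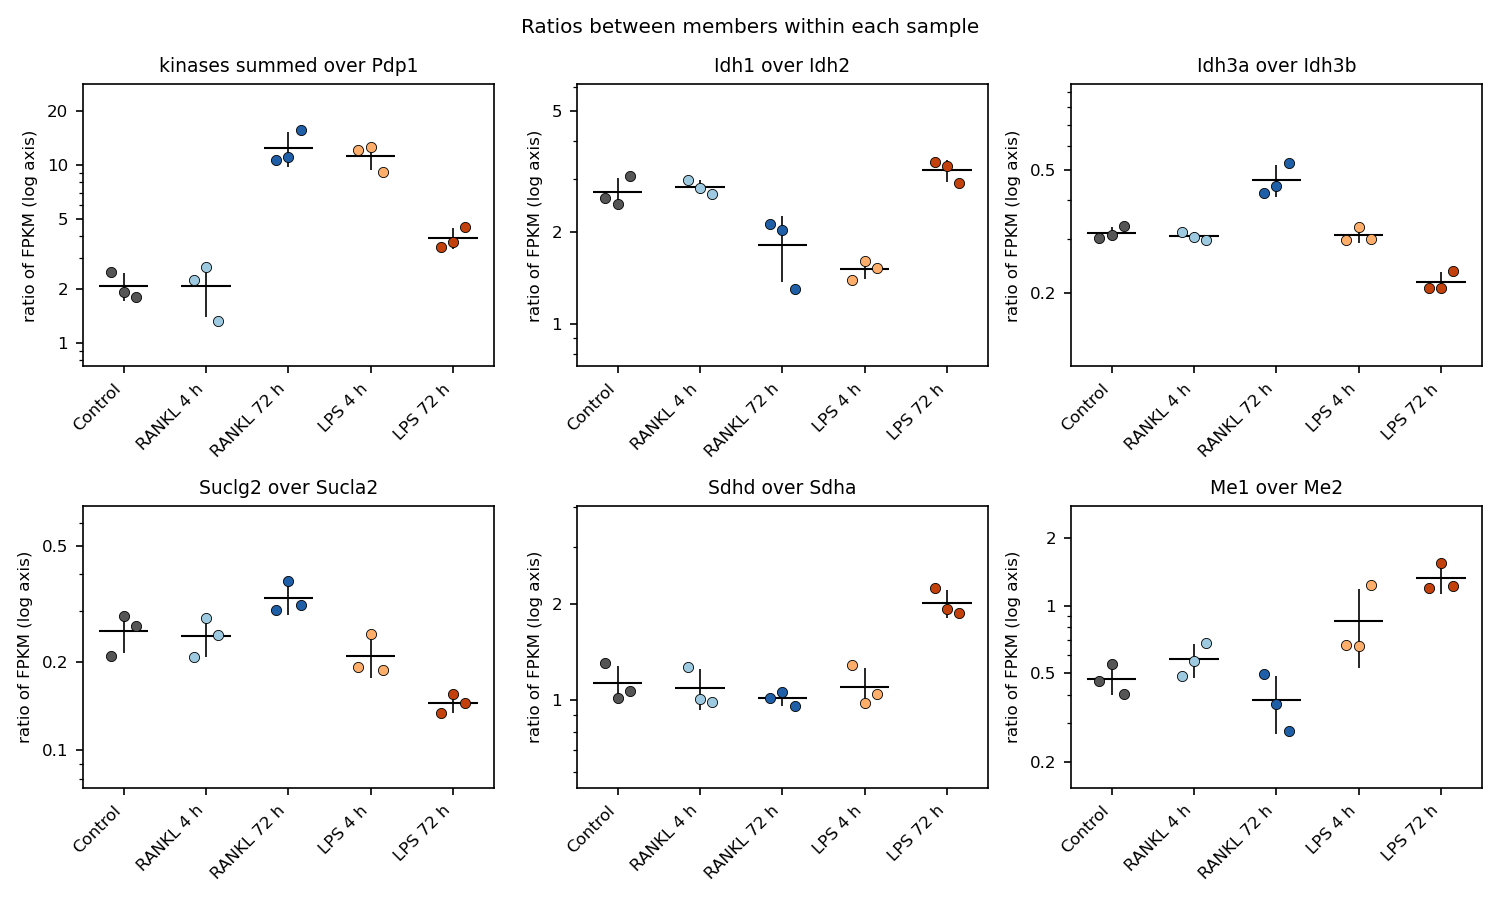
Ratios of FPKM between enzymes, taken within each sample and drawn on a log axis with the mean as a line and the SD as a bar (n = 3 per group). The kinase to *Pdp1* ratio is highest at 72 h of RANKL (10.6 to 15.7) and 4 h of LPS (9.11 to 12.6), and the other panels show pairs of subunits or isoenzymes. All ratios were chosen after the values were seen.

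The pairs of subunits and isoenzymes below were also chosen after the values were seen, so their shifts only describe these samples. *Sdhd* over *Sdha* was 1.02 to 1.31 in control, 0.962 to 1.07 at 72 h of RANKL and 1.87 to 2.24 at 72 h of LPS. *Idh3a* over *Idh3b*, the catalytic over a regulatory subunit, was 0.302 to 0.328 in control, 0.421 to 0.527 at 72 h of RANKL and 0.208 to 0.235 at 72 h of LPS. These ranges show the subunit genes of 1 enzyme moving by unequal amounts. *Suclg2* over *Sucla2*, the GTP-forming over the ATP-forming subunit, was 0.211 to 0.288 in control, 0.303 to 0.380 at 72 h of RANKL and 0.134 to 0.156 at 72 h of LPS. *Mdh1* over *Mdh2*, cytosolic over mitochondrial, was 0.348 to 0.395 in control, 0.494 to 0.577 at 72 h of RANKL and 0.279 to 0.349 at 72 h of LPS. In both pairs the RANKL and LPS samples lay on opposite sides of control, apart from 1 end of the LPS range of *Mdh1* over *Mdh2*. *Me1* over *Me2* was 0.401 to 0.548 in control, 0.276 to 0.492 at 72 h of RANKL and 1.20 to 1.55 at 72 h of LPS. *Idh1* over *Idh2* was 2.47 to 3.06 in control, 1.31 to 2.13 at 72 h of RANKL, 1.39 to 1.61 at 4 h of LPS and 2.90 to 3.40 at 72 h of LPS. *Dld* over *Pdha1* was 1.06 to 1.25 in control, 0.882 to 0.986 at 72 h of RANKL, 2.28 to 2.81 at 4 h of LPS and 1.11 to 1.60 at 72 h of LPS, so it lay below control in every RANKL 72 h sample and above it in every LPS 4 h sample.

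A list of 30 further genes of the pathway was also measured, among them the pyruvate carriers, lactate dehydrogenases, lipoate enzymes and mitochondrial carriers. After 72 h of RANKL 10 of these rose and 1 fell (7 and 2 after centring), where 16.6% and 7.54% of all genes did. The 5 largest changes were in *Acod1*, *Ldhb*, *Pdpr*, *Ldha* and *Fasn*. *Acod1*, which makes itaconate from the cycle intermediate cis-aconitate, was uneven in control at 67.9, 17.6 and 12.0 FPKM and fell to 6.10, 7.82 and 6.45 FPKM (log2 difference -1.83, SE 0.51, adjusted p = 0.0149). *Ldha*, which reduces pyruvate to lactate, was at 487, 352 and 331 FPKM in control and 952, 982 and 1109 FPKM after RANKL (log2 difference 1.40, SE 0.20, adjusted p = 0.000266). *Ldhb*, its counterpart, was at 11.8, 8.67 and 7.90 FPKM and 38.3, 20.0 and 38.0 FPKM (log2 difference 1.71, SE 0.29, adjusted p = 0.000722). So both lactate dehydrogenase genes rose along with the dehydrogenase complex. *Pdpr*, a regulatory subunit of the pyruvate dehydrogenase phosphatase, was at 1.78, 2.74 and 3.90 FPKM and 9.07, 6.50 and 7.68 FPKM (log2 difference 1.49, SE 0.29, adjusted p = 0.00193), while *Pdp1* fell. What these changes mean for the activity of the phosphatase was not tested. *Fasn*, fatty acid synthase, rose by 1.05 (adjusted p = 0.0240) and was not called after centring.

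After 4 h of LPS 1 of the 30 rose and 19 fell (3 and 4 after centring), where 8.43% and 39.7% of all genes did. The gene that rose was *Acod1*, at 1856, 2080 and 2178 FPKM (log2 difference 6.38, SE 0.51, adjusted p = 3.35e-07). In the same samples *Acod1* was 29.1 to 33.6 times as high as *Cs*, where this ratio was 0.156 to 1.06 in control, 0.0376 to 0.0721 at 72 h of RANKL and 1.52 to 3.11 at 72 h of LPS. *Lipt2* and *D2hgdh* fell by 4.16 and 2.93-fold, *Sdhaf1*, an assembly factor of succinate dehydrogenase, by 2.82-fold and *Slc25a13*, an aspartate-glutamate carrier, by 2.58-fold. After 72 h of LPS 2 of the 30 rose and 5 fell, where 13% and 14.4% of all genes did. RANKL exceeded LPS at 72 h in 13 and was below it in 1, where 23.3% and 12.8% of all genes were called.

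In the GRCm38 annotation *Pdk1* spans chr2:71873224-71903858 on the plus strand, *Pdk2* chr11:95026258-95041354 on the minus strand, *Pdp1* chr4:11958184-11966452 on the minus strand, *Pcx* chr19:4510472-4621752 on the plus strand and *Mdh1* chr11:21556787-21572367 on the minus strand. Values were summed over exons of the whole gene. Of the 35 genes, 14 overlap another annotated gene and 7 another protein-coding gene, among them *Pdha1* with *Map3k15*, *Pcx* with *Lrfn4*, *Idh3b* with *Nop56*, *Fh1* with *Kmo*, *Mdh1* with *Wdpcp*, and *Acss2* with *Ggt7* and *Gss*. How fragments in shared stretches were assigned, and whether strand was used, is not given in the sources used here, so the levels of these genes carry that uncertainty. An exact permutation test of 3 samples against 3 cannot give a two-sided p below 0.1, and for this reason single genes were tested in the fit over all genes.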

How the data were processed

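RNA from 15 BMDM samples had been sequenced, and the deposited table gives 1 FPKM value per gene and sample. Per the labels and the study's methods, the authors estimated these FPKM values with StringTie and Ballgown, and the processing notes name the builds GRCm38.p4 and mm10. The aligner is not given in the sources used here. The FPKM values were used as deposited, and 1 incomplete row was left out. Because FPKM steps keep the fragment counts, whole fragments were recovered (within 0.01) for 14485 of 14485 genes (100%) above 0 in at least 3 samples. They gave 18306184 to 20330207 fragments per sample and served as input to voom. No replicates were duplicates of each other, since they differed by 6.87 to 46.3 times the sampling noise. The highest ratios, 46.3 and 31.5, were those of LPS 72 h replicate 3 with replicates 1 and 2. Those replicates differed from each other by 7.74 times the noise, and no pair in another group exceeded 19.8. Replicate 3 thus stood apart in the LPS 72 h group.

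Groups came from the treatment labels. log2(FPKM + 0.1) was fitted with limma 3.58.1 (eBayes with trend) in R 4.3.3, with the 5 groups together. Genes averaging under 0.1 FPKM were dropped, which left 11743, and p-values were adjusted over all of these by the Benjamini-Hochberg method. The fold thresholds of 1.5 and 0.66 follow the study's methods. Unadjusted p-values, other pseudocounts, filters and scalings, centring, a replicate block, leaving out each sample and voom were tried as alternatives. The members and lists were chosen with earlier results of these data known. All 35 enzyme genes are given by role, with the values of each sample where called in a comparison with control or between the agents at 72 h. Of the 30 further pathway genes, counts are given with values for the 5 largest changes called at 72 h of RANKL and 4 h of LPS.

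Same-numbered samples deviated together in the comparisons of 4 h of RANKL (r 0.71 to 0.84), 72 h of RANKL (0.14 to 0.32) and 4 h of LPS (0.44 to 0.62) with control, above 0.1 in every pair, but not at 72 h of LPS. The labels do not say what a number shares. On simulated data the fit called 54 of 97 genes changed by a log2 difference of 1, 95 of 103 changed by 2 and 11 of 11543 unchanged genes. The simulation had independent noise, few changed genes, no shift of the median gene and no deviations shared by replicate number. Its rates are therefore not those of the real comparisons. Python 3.11.15 with pandas 2.3.3, numpy 2.4.6, scipy 1.17.1 and matplotlib 3.10.9 did the rest. RefSeq windows on GRCm38.p6 were matched by symbol.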

Additional observations from a re-analysis of the deposited data

Results flagged for a closer look

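The 72 h samples of each agent were compared with its 4 h samples by limma, 3 samples against 3. The control samples drop out of this difference, but all 15 samples set the spread used in the fit. No group was kept in M-CSF alone for 72 h. A change in the effect of an agent and the longer time in culture therefore cannot be told apart here. RANKL at 72 h was above RANKL at 4 h in 22 of the 35 genes and below it in 0, where 16.4% and 6.83% of all genes were. On the log2 scale the differences were 0.98 for *Pdha1*, 0.99 for *Pdhb*, 0.80 for *Dlat*, 0.59 for *Dld*, 3.36 for *Pdk1*, 1.32 for *Pdk2*, 0.81 for *Pdk3*, 1.36 for *Pdk4*, 1.59 for *Pcx*, 0.84 for *Me2*, 0.88 for *Cs*, 0.65 for *Idh2*, 1.23 for *Idh3a*, 0.64 for *Idh3b*, 0.76 for *Idh3g*, 0.62 for *Ogdh*, 0.86 for *Suclg2*, 0.64 for *Sdha*, 0.94 for *Fh1*, 1.12 for *Mdh1*, 0.76 for *Mdh2* and 0.60 for *Acly*. After centring on the median gene 13 of these remained higher and *Pdp1* was lower (-0.79). Without replicate 3 of RANKL at 72 h, *Dld*, *Idh2*, *Idh3b*, *Ogdh*, *Sdha*, *Mdh2* and *Acly* were lost, and without replicate 1 of RANKL at 4 h the same genes except *Mdh2*. *Pdk4* was lost without replicate 3 of RANKL at 4 h or replicate 1 or 2 at 72 h, *Ogdh* also without replicate 2 at 4 h, and *Acly* also without replicate 2 at 72 h.

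LPS at 72 h was above LPS at 4 h in 15 of the 35 genes and below it in 0, where 44.2% and 13.9% of all genes were. The log2 differences were 0.64 for *Pdha1*, 1.57 for *Pdk1*, 3.15 for *Pdk2*, 1.67 for *Pdk4*, 2.25 for *Pdp1*, 0.98 for *Pcx*, 1.26 for *Me1*, 1.21 for *Aco1*, 1.09 for *Idh1*, 0.80 for *Idh3b*, 0.62 for *Sdhb*, 1.31 for *Sdhd*, 0.66 for *Mdh2*, 0.82 for *Acly* and 0.70 for *Acss1*. This split depends on the scaling: after centring 6 genes were higher (*Pdk1*, *Pdk2*, *Pdk4*, *Pdp1*, *Me1* and *Sdhd*) and 7 lower (*Dld*, *Pdk3*, *Cs*, *Idh2*, *Idh3g*, *Suclg2* and *Acss2*). *Pdha1*, *Pcx*, *Sdhb* and *Acss1* were each lost without 1 or more single LPS samples: *Pdha1* without replicate 1 at 4 h or 3 at 72 h, *Pcx* without either of these or replicate 2 at 72 h, *Sdhb* without replicate 3 at 4 h, and *Acss1* without replicate 1 or 3 at 4 h. The levels of *Pdk2* show the course: 0.447, 0.587 and 0.396 FPKM at 4 h and 6.29, 4.45 and 4.38 FPKM at 72 h, around the control values of 1.87, 2.04 and 2.19 FPKM.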

How the results depend on the processing

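Centring on the median gene, with or without the replicate block (the pair was added after seeing the data), changed the counts of called genes to 9 for 72 h of RANKL, 6 for 4 h of LPS, 5 for RANKL against LPS at 4 h and 14 for RANKL at 72 h against 4 h. With no fold threshold the counts were 28 for 4 h of LPS, 26 for RANKL against LPS at 4 h and 25 for LPS at 72 h against 4 h. The share of all genes called by that rule is not given here. At an unadjusted p under 0.05 in limma, 7493, 7654 and 8145 of the 11743 genes passed in these 3 comparisons. Of the 35 genes 28, 27 and 25 did, so such counts say little about these genes in particular. Between 72 h and 4 h of LPS, where the median gene itself rose by 0.65, centring left 13 of 35 differences above 0 in place of 30. Those called on either scale that changed sign were *Pdha1* (-0.013), *Idh2* (-0.64), *Idh3g* (-0.61) and *Sdhb* (-0.0333) and the split of 15 higher and 0 lower became 6 and 7. Leaving out 1 sample gave 0 to 0 calls for 4 h and 12 to 21 for 72 h of RANKL, 14 to 22 for 4 h and 7 to 10 for 72 h of LPS, 17 to 21 between the agents at 72 h and 11 to 19 at 4 h, 15 to 23 between the times of RANKL and 14 to 18 between those of LPS, with no direction reversed. The shares of all genes called in these reduced fits are not given here. The replicate block gave 19 calls for 72 h of RANKL (*Pdk4* gained), 10 for 72 h of LPS (*Pcx* gained) and 20 between the agents at 72 h (*Pdk4* gained), and it changed no other call. For 72 h of LPS the numbers did not pair the samples: 2 of 3 samples correlated best with their own number against control (r -0.03 to 0.18) and 0 of 3 against RANKL at 72 h (-0.23 to -0.02) and LPS at 4 h (-0.15 to 0.07). Counts stayed within 1.5 times under unadjusted p, other pseudocounts and filters, equal sums, voom, no trend and a fit of the 2 groups alone, and single genes lost their call most often with a pseudocount of 1 (13 of 280 values). The lowest values, *Pdk4* at 4 h of LPS, rest on 7 to 9 fragments, so counting error limits them.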
